A study of Mus musculus with 8 samples.

Results

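Bone morphogenetic protein (BMP) signalling and the Id genes were followed in mouse striatal cells transfected with Bcl11b. The group consisted of 10 genes, chosen by name: the ligand Bmp4, the receptor Bmpr1a, the signal transducers Smad1 and Smad5, the inhibitory Smads Smad6 and Smad7, and the 4 inhibitors of differentiation Id1 to Id4. Every probe of these genes in the deposited table was used, 17 of 25697 probes, which carry 18120 gene symbols in all. The table lists 7 of the genes under their current symbols, and Id1, Id3 and Id4 under the older symbols Idb1, Idb3 and Idb4, each of which names only that gene in RefSeq. STHdh cells are a conditionally immortalized wild-type striatal progenitor line derived from embryonic mouse striatum. The 4 Bcl11b samples were cells transiently transfected with a pcDNA3.1 plasmid carrying the beta isoform of mouse Bcl11b, and the 4 mock samples were labelled wild-type and titled for the empty pcDNA3.1 plasmid. RNA was taken 2 days after transfection and each sample was hybridized to 1 Illumina MouseRef-8 v2 array. The labels number the samples as replicates and the study describes sets of transfected cells of 1 line, so the tests measure the spread between transfections of that line.

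In the BMP pathway, a secreted ligand binds a complex of type I and type II serine/threonine kinase receptors. The type I receptor, such as Bmpr1a, phosphorylates Smad1 and Smad5, which join Smad4 and enter the nucleus, while Smad6 and Smad7 block this step and are themselves induced by it. The Id genes are among the most direct targets of the pathway. Their proteins carry a helix-loop-helix domain without a DNA-binding region and hold E proteins such as Tcf4 and Tcf12 away from DNA, which keeps neural progenitors from differentiating.

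The sequences just before the start sites are shown for the Id genes that RefSeq's promoter table (build GRCm38.p6) held. Sequence further from the start sites was not searched, so Smad elements there are not covered. Promoter windows were searched for 8 of the 10 genes, and Id1 and Smad7 were not among them. The promoters of Id1 and Smad7 were therefore not examined. Each line gives the 250 bases before the start, 5′ to 3′ on the strand of the gene, with the letters GGCGCC in capitals, the core of the GC-rich element bound by Smad1 and Smad5.
Id2, chr12:25096093-25096342, minus strand: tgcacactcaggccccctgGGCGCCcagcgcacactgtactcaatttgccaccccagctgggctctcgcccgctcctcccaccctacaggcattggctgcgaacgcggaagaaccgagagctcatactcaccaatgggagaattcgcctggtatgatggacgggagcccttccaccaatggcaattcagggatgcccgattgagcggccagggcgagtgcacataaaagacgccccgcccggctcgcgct
Id3, chr4:136143572-136143821, plus strand: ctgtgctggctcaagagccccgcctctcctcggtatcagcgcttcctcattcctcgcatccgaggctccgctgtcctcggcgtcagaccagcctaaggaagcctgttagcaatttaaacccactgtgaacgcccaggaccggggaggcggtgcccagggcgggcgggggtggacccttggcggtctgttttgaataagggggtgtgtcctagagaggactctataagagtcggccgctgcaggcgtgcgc
Id4, chr13:48260866-48261115, plus strand: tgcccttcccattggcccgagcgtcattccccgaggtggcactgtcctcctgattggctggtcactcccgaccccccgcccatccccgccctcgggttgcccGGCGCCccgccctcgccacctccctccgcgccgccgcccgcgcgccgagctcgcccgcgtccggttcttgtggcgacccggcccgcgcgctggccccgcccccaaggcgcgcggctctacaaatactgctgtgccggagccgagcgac

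The element began 231 bases before the start of Id2 and 148 bases before that of Id4, and it was not found in the window of Id3. Of all 32851 promoter windows of this length, 9.59% held it (it reads the same on both strands). The element consists of G and C alone, which made up 62.8%, 62.8% and 75.6% of the Id2, Id3 and Id4 windows. The mean over all windows was 53.2%, so the share of 9.59% is not matched for base content. Among the other members the element was also in the window of Bmpr1a and in a window of Smad5, but not in those of Bmp4, Smad1 and Smad6. The 4-letter Smad4 box GTCT, searched on both strands, occurred 1 time in the window of Id2, 2 times in that of Id3 and 0 times in that of Id4, and 82.9% of all windows held it. The motifs that the study derived from its Bcl11b binding sites were searched on both strands as well. None of the 3 Id windows held ACCACA (14.0% of all windows), TGCTTG (13.7%) or AGTGCT (12.6%). Of the motifs given for 5′ regions, AGTGTG occurred 2 times in the window of Id2, beginning 248 and 220 bases before the start, and 14.3% of all windows held it. AGAGTG (13.6% of all windows) and GGATCA (7.6%) were in none of the 3 Id windows. Among the other members, AGAGTG was in a Smad5 window (137 bases before the start) and in that of Smad6 (200). TGCTTG was in the window of Bmpr1a (90), and those of Bmp4 and Smad1 held none of the study's motifs. These matches describe letters in a window and do not show binding. The study lists Id3 among the genes of its top Bcl11b ChIP-seq hits. The position of that hit was not compared with the window used here, so a missing motif does not speak against binding at Id3.

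After quantile normalization, signals under 1 were raised to 1, and the log2 values of all 25697 probes entered one limma fit with Benjamini-Hochberg adjustment. A probe was called detected on an array where its deposited p-value against the negative control beads was under 0.01. The number of arrays limits the precision of every value. Between 10121 and 10784 probes were detected per array. Bcl11b replicate 4 stood apart from the rest of its group. Its mean Pearson correlation with the other Bcl11b arrays, across the 9360 probes detected on all 8 arrays, was 0.93, while that of each of the other Bcl11b arrays was 0.97 and that of the mock arrays lay between 0.95 and 0.96. It was also the brightest of the 4 Bcl11b arrays on 50.1% of these probes. Results that rest on this array are given with and without it. The single Bcl11b probe was not detected on any array, so transfection cannot be checked here by the level of the transfected gene. The study describes its own checks of transfection in duplicate sets of cells, by GFP-positive cells and by Bcl11b qPCR. It also lists Bcl11b among the striatal-enriched genes altered on its arrays. Of the marker lists, Nes, Sox2 and Vim were the detected markers of neural progenitors (3 of 7), and none of 7 medium spiny neuron markers on the array was detected. The study reports Ppp1r1b, Rgs9 and Adcy5 of that list in these cells by PCR, so a missing array signal does not show that they are absent. None of the endothelial or microglial markers was detected, 1 of 6 astrocyte markers was, and 5 of 7 mesenchymal markers were. Of the pan neuronal markers 2 of 4 were detected, Mtap2 and Syn1, and the summed signal of that list lay between 1122 and 1448 in mock and between 1367 and 1693 in Bcl11b samples. The summed normalized signal of the mesenchymal markers lay between 26340 and 33080 in mock and between 31740 and 37400 in Bcl11b samples. That of the neural progenitor markers lay between 23670 and 27660 in mock and between 19980 and 27660 in Bcl11b samples. The part of any of these lists in the results was not tested.

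Of the 17 probes, 15 were detected on at least 1 array and 14 on all 8. These 15 probes stood for 9 genes, and Smad7 was the gene not detected. At an adjusted p-value of 0.10 from limma, 0 of the 15 passed, where 1.67% of detected probes did, and the smallest adjusted p among them was 0.199. The looser threshold was an unadjusted limma p of 0.05 together with a log2 change of at least 0.32, called the unadjusted threshold below. It was passed by 3 of the 15 detected probes, a Smad5 probe that was higher and a Smad6 and the Id4 probe that were lower in Bcl11b-transfected cells. This share of 20% lay near the background, since 14.8% of all detected probes passed, 4.32% higher and 10.5% lower. The split of the background depended on the scaling: over all 25697 probes 823 were higher and 1494 lower, whereas with arrays scaled to equal medians 1241 were higher and 1118 lower. The same 3 member probes passed under that scaling, in the same directions. Each sample held all cells of its culture, transfected or not, so a lower signal from fewer expressing cells and one from less RNA per cell cannot be told apart. Over the 14 probes detected on all arrays, 9 were lower and 5 were higher, with a median log2 fold change of -0.21, whereas the median over all 9360 such probes was -0.026 and 46.6% of those were higher. This split moved with the arrays and the scaling, to 2 higher and 12 lower without mock replicate 1 or with arrayWeights, to 3 and 11 without Bcl11b replicate 4, and to 0 and 14 without normalization. The groups did not overlap for 1 of the 15 probes, against 10.1% of detected probes.

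**Figure D1:**
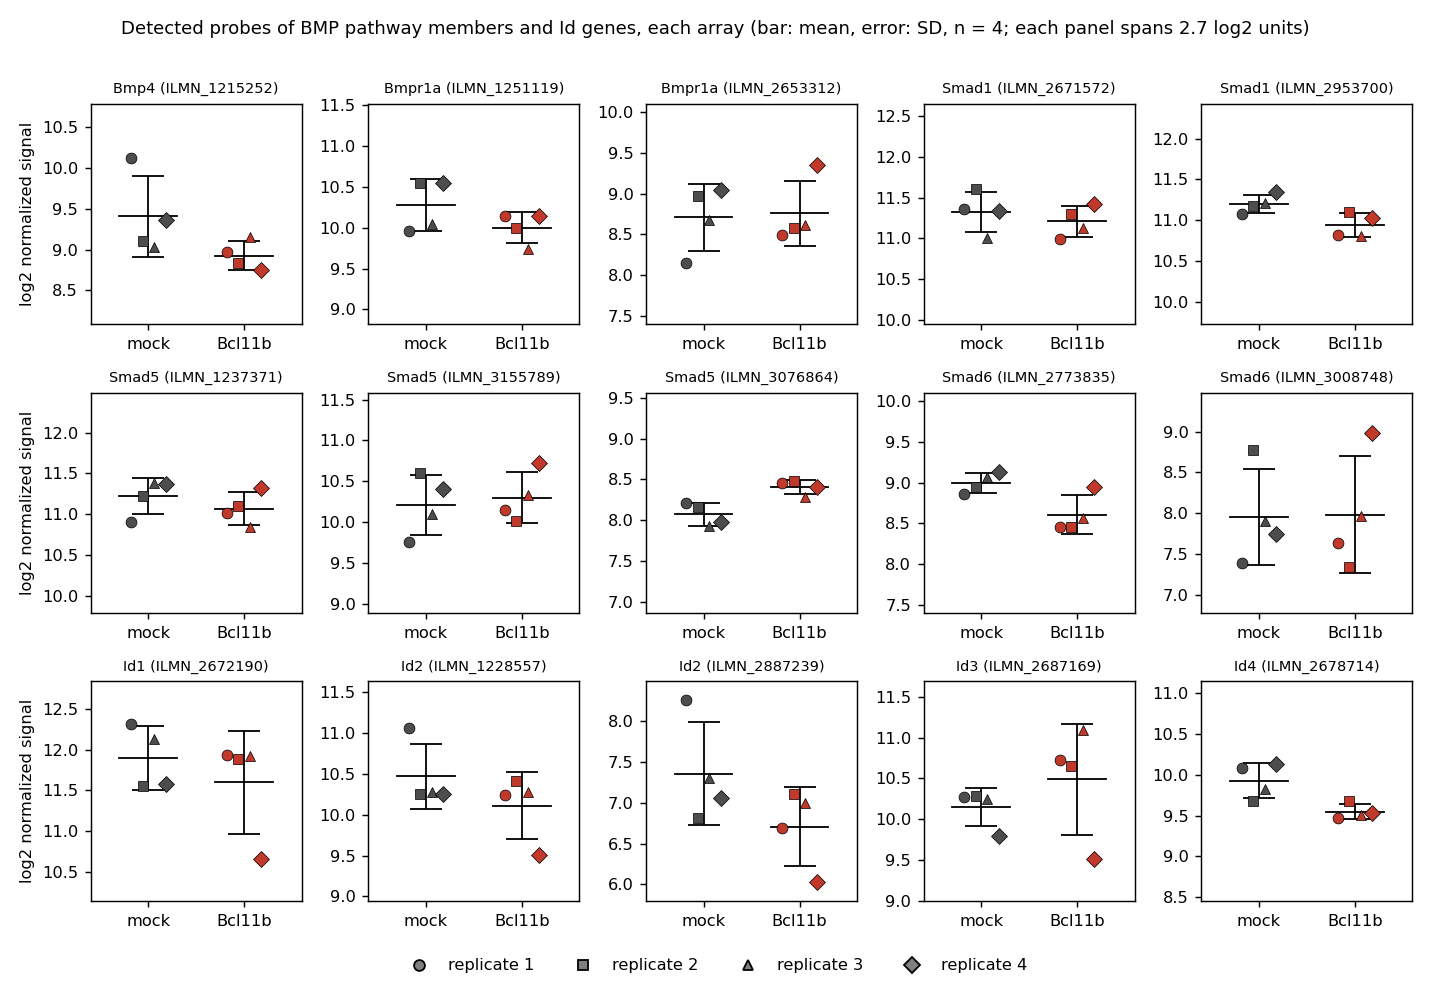
Log2 normalized signal (vertical axis) of the 15 detected probes on the 4 mock and 4 Bcl11b arrays, with a symbol for each replicate number, the mean as a bar and the SD as the error (n = 4). The Smad5 ILMN_3076864 panel is the one in which all 4 Bcl11b arrays lie above all mock arrays, and in the Id1, Id2 and Id3 panels Bcl11b replicate 4 lies below the other 7 arrays.

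Bmp4, the ligand of the group, is a morphogen that patterns the dorsal forebrain. Its probe (ILMN_1215252) gave log2 signals of 10.12, 9.10, 9.04 and 9.36 on mock replicates 1 to 4, and of 8.97, 8.84, 9.15 and 8.75 on Bcl11b replicates 1 to 4. Mock replicate 1 was the highest of the 8 arrays, and the groups overlapped at Bcl11b replicate 3. The difference of -0.48 (SE 0.26, 95% interval -1.10 to 0.14) did not pass (adjusted p = 0.635 from limma), and it was -0.24 without mock replicate 1.

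Bmpr1a is the type I receptor through which Bmp2 and Bmp4 signal. Of its 2 probes, ILMN_1251119 lay between 9.96 and 10.55 on the mock arrays and between 9.74 and 10.15 on the Bcl11b arrays, a difference of -0.27 (SE 0.18, adjusted p = 0.719 from limma). ILMN_2653312 lay between 8.14 and 9.05 on the mock arrays and between 8.49 and 9.35 on the Bcl11b arrays, a difference of 0.049 (SE 0.28, adjusted p = 1 from limma). Neither probe separated the groups. The highest value of ILMN_2653312 was on Bcl11b replicate 4, and without that array its difference was -0.15. Without mock replicate 1 it was -0.14, so no direction is drawn from this probe.

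The receptor-regulated Smads carry the signal to the nucleus. Smad1 had 2 detected probes. ILMN_2953700 read 11.08, 11.17, 11.21 and 11.35 on the mock arrays and 10.82, 11.10, 10.80 and 11.03 on the Bcl11b arrays. Bcl11b replicate 2 lay within the mock range and the remaining Bcl11b arrays lay below it. The difference was -0.26 (SE 0.090, 95% interval -0.48 to -0.049, adjusted p = 0.371 from limma), smaller than the 0.32 that the unadjusted threshold asks for. ILMN_2671572 averaged 11.32 ± 0.25 (SD, n = 4) on the mock and 11.21 ± 0.19 (SD, n = 4) on the Bcl11b arrays, with a difference of -0.12 (SE 0.15, adjusted p = 0.919 from limma). The third probe, ILMN_1234354, was not detected on any array and is given no fold change.

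Smad5 acts beside Smad1, and its 3 probes gave different values. ILMN_3076864 read 8.21, 8.16, 7.93 and 7.98 on the mock arrays and 8.46, 8.49, 8.28 and 8.41 on the Bcl11b arrays. All 4 Bcl11b arrays lay above all 4 mock arrays. The difference was 0.34 on the log2 scale, or 1.26-fold (SE 0.080, 95% interval 0.15 to 0.53, adjusted p = 0.199 from limma). The value lay just past the size threshold, and it no longer reached it without mock replicate 3 (0.292) or 4 (0.311) or Bcl11b replicate 1 (0.319) or 2 (0.311). The groups of the other two probes overlapped. ILMN_3155789 had a difference of 0.089 (SE 0.23) and ILMN_1237371 one of -0.15 (SE 0.14), with adjusted p-values from limma of 1 and 0.809. The direction of ILMN_3155789 turned without mock replicate 1 (-0.066) or Bcl11b replicate 4 (-0.049). Without normalization between arrays, which moved the median probe by -0.49, ILMN_3076864 also turned to -0.38, a value less negative than that shift. Which transcripts of Smad5 each probe reads is not given in the deposited table.

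Smad6 is an inhibitory Smad that is induced by BMP signalling and damps it. Its probe ILMN_2773835 read 8.86, 8.95, 9.06 and 9.13 on the mock arrays and 8.45, 8.46, 8.57 and 8.95 on the Bcl11b arrays. Bcl11b replicates 1 to 3 lay below all mock arrays and Bcl11b replicate 4 lay within their range. The difference was -0.39 (SE 0.13, 1.31-fold lower, 95% interval -0.70 to -0.085, adjusted p = 0.353 from limma). Without Bcl11b replicate 4 it was -0.51, with an adjusted p = 0.0918 from limma. Without mock replicate 3 (-0.37) or 4 (-0.36) or Bcl11b replicate 1 or 2 (both -0.34) it no longer passed the unadjusted threshold. The second probe, ILMN_3008748, varied far more within the groups, between 7.39 and 8.77 in mock and between 7.35 and 8.99 in Bcl11b samples. Its difference was 0.030 (SE 0.45, adjusted p = 1 from limma), and it was -0.31 without Bcl11b replicate 4 and 0.31 without mock replicate 2, so no direction is drawn from this probe.

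Smad7, the general inhibitor of TGF-beta and BMP signals, had 1 probe (ILMN_2759660). Its deposited signal was below 0 on every array, from -47.1 to -11.6, with detection p-values between 0.615 and 0.987. The probe gave no measurable level in either group, and no change can be given.

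**Figure D2:**
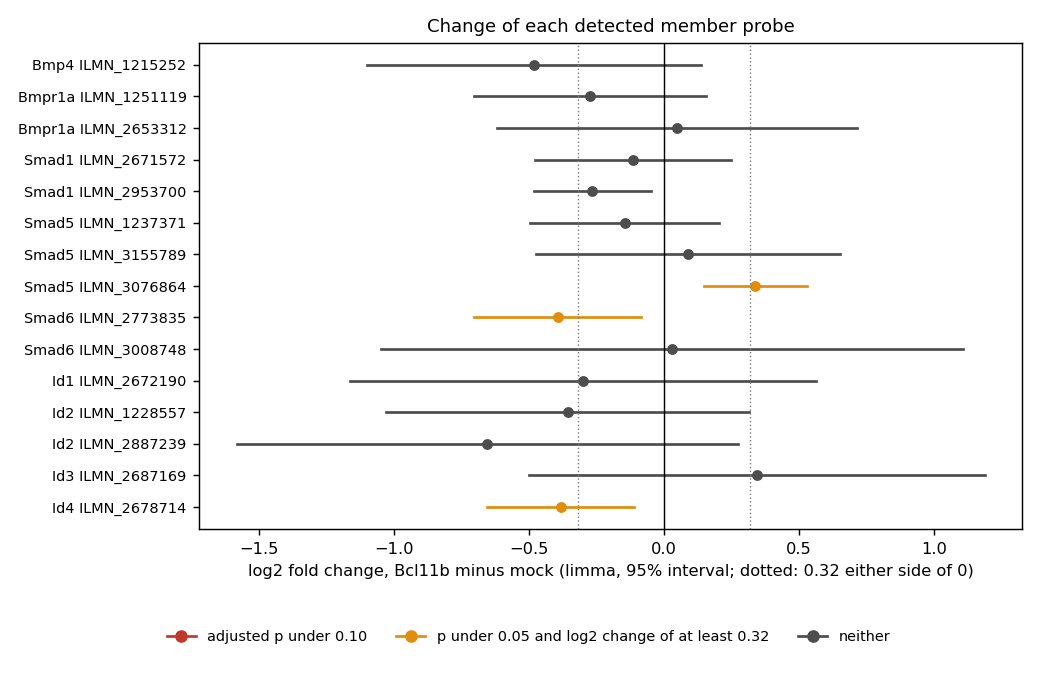
Log2 fold change of each detected probe, Bcl11b minus mock (horizontal axis), with the 95% interval from limma, and dotted lines at 0.32 either side of 0. One probe each of Smad5 (0.34), Smad6 (-0.39) and Id4 (-0.38) is coloured as past the unadjusted threshold, and no probe is coloured as past an adjusted p of 0.10.

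The Id genes are the readout of the pathway in this group, and each was detected. Id4, which is expressed in neural stem cells and astrocyte progenitors, was the Id gene past the unadjusted threshold. Its probe (ILMN_2678714) read 10.08, 9.68, 9.82 and 10.13 on the mock arrays and 9.47, 9.68, 9.51 and 9.53 on the Bcl11b arrays. Mock replicate 2 and Bcl11b replicate 2 met at 9.68, and the remaining Bcl11b arrays lay below the mock range. The difference was -0.38 (SE 0.11, 1.30-fold lower, 95% interval -0.65 to -0.11, adjusted p = 0.301 from limma). Without mock replicate 4 it was -0.316, which no longer passed the unadjusted threshold. With the other arrays left out in turn it lay between -0.47 and -0.33 and stayed past the unadjusted threshold.

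Id1, the first of the family to be described, was bright on every array. ILMN_2672190 read 12.32, 11.55, 12.13 and 11.58 on the mock arrays and 11.94, 11.88, 11.92 and 10.66 on the Bcl11b arrays. Bcl11b replicates 1 to 3 lay inside the mock range within 0.1 of each other, and Bcl11b replicate 4 lay below every other array. The difference of -0.30 (SE 0.36, 95% interval -1.16 to 0.56, adjusted p = 0.891 from limma) became 0.017 when Bcl11b replicate 4 was left out, and the interval with all arrays leaves room for a change of 1 on the log2 scale.

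Id2, which is expressed in neural progenitors and in neurons, had 2 probes with the same order of extremes. ILMN_1228557 read 11.07, 10.26, 10.28 and 10.25 on the mock arrays and 10.24, 10.42, 10.28 and 9.51 on the Bcl11b arrays. ILMN_2887239 read 8.25, 6.82, 7.30 and 7.06 on the mock arrays and 6.69, 7.11, 7.001 and 6.03 on the Bcl11b arrays, and of these it was not detected on Bcl11b replicate 4, whose deposited detection value of 0.0125 missed the limit of 0.01. On both probes mock replicate 1 was the highest of the 8 arrays and Bcl11b replicate 4 the lowest. The differences were -0.36 (SE 0.28, adjusted p = 0.802 from limma) and -0.65 (SE 0.38, adjusted p = 0.675 from limma). Without mock replicate 1 they were -0.15 and -0.36, and with Bcl11b replicate 4 left out as well they were 0.047 and -0.13.

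Id3 has roles in neural progenitors that overlap with those of Id1. Its probe (ILMN_2687169) read 10.27, 10.28, 10.25 and 9.79 on the mock arrays and 10.72, 10.65, 11.09 and 9.51 on the Bcl11b arrays. Bcl11b replicates 1 to 3 lay above all 4 mock arrays, and Bcl11b replicate 4 lay below all of them. With all arrays the difference was 0.34 (SE 0.35, 95% interval -0.50 to 1.19, adjusted p = 0.821 from limma). Without Bcl11b replicate 4 it was 0.67, past the unadjusted threshold (adjusted p = 0.235 from limma). The direction of Id3 also depended on the scaling, since without normalization between arrays, under that same shift of -0.49, the difference was -0.33, less negative than the shift itself.

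Of the 5 Id probes, 4 had their lowest value of all 8 arrays on Bcl11b replicate 4 (Id1, Id3 and both Id2 probes), while this array held the lowest value of 16.7% of the probes detected on all arrays. On 3 of the 5, for Id1 and Id2, mock replicate 1 held the highest value, against 14.9% of probes. Bmp4 had the same extremes as Id1 and Id2, highest on mock replicate 1 and lowest on Bcl11b replicate 4. Of the 14 member probes detected on all arrays, 3 had their highest value on Bcl11b replicate 4 (Bmpr1a ILMN_2653312, Smad5 ILMN_3155789 and Smad6 ILMN_3008748), against 24.5% of all such probes. Bcl11b replicate 4 also stood apart over all probes, as given above, and the part of that in the Id values was not tested.

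**Figure D3:**
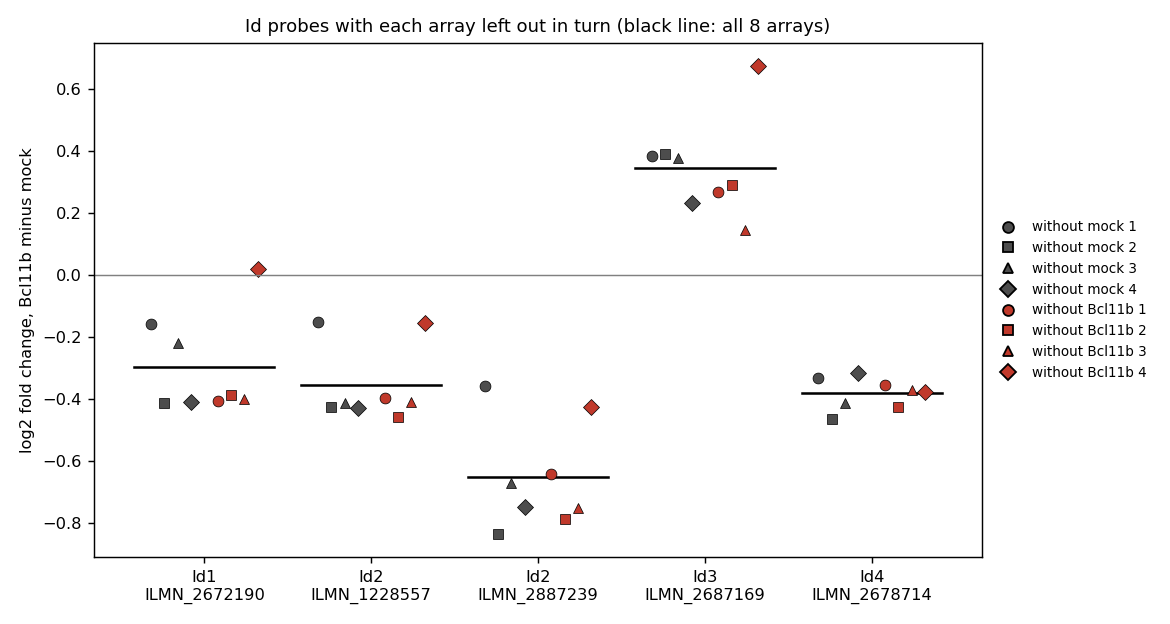
Log2 fold change of the 5 Id probes, Bcl11b minus mock (vertical axis), with all 8 arrays (black line) and with each array left out in turn (points, grey for a mock array and red for a Bcl11b array). Without Bcl11b replicate 4 the value of Id1 moves from -0.30 to 0.017 and that of Id3 from 0.34 to 0.67, whereas Id4 stays between -0.47 and -0.32.

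Other genes of the pathway and bHLH factors that Id proteins bind or act on were taken from a list of 67 symbols. The table held 63 of these genes with 82 probes, and 33 probes for 29 genes were detected on at least 1 array. Of the 33, 3 passed an adjusted p-value of 0.10 from limma, for Fst, Bmper and Chrd, a share of 9.09% against the background of 1.67%. The unadjusted threshold was passed by 7, 1 higher and 6 lower, a share of 21.2% against the background of 14.8%. The list was chosen with earlier results of these data known, and the study itself reports a change of Fst. Neither share is therefore a measure of enrichment. The symbols Tcf3 and Cer1 were left out because each is also an older name of another gene, Tcf7l1 and Acer1.

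Of the 7 probes past the unadjusted threshold, 5 belonged to the extracellular regulators, where 8 of 14 genes were detected with 11 probes. This share of 45.5% stands beside 14.8% of all detected probes. It is no measure of enrichment either, since the list was chosen with earlier results known. Bmper, a secreted protein that binds BMPs and modulates them, fell by 0.42 on the log2 scale (SE 0.054, 1.34-fold, adjusted p = 0.0482 from limma). Its probe lay between 10 and 10.21 on the mock arrays and between 9.61 and 9.72 on the Bcl11b arrays, without overlap. With each array left out in turn its difference stayed between -0.45 and -0.38, but its adjusted p from limma lay between 0.144 and 0.165 without mock replicate 4 or any one of Bcl11b replicates 1 to 3. The adjusted call was also lost with arrays scaled to equal medians (-0.37, adjusted p = 0.223 from limma) and without normalization, with limma-trend or with filters on the detection p-value (adjusted p from 0.125 to 0.253). Chrd, chordin, which binds BMPs and keeps them from their receptors, was detected on 3 of the mock arrays but on 0 of the Bcl11b arrays. Its level was at least 1.15-fold lower after Bcl11b transfection, taking the lowest detected signal of each Bcl11b array as the bound, and this bound was not tested. The adjusted p of 0.0681 from limma belongs to the log2 difference of -1.84 without that bound, from Bcl11b values that were not detected. With any single array except mock replicate 2 left out, its adjusted p from limma lay between 0.121 and 0.211, and it was 0.162 with limma-trend and 0.125 without normalization. Fst, follistatin, which binds activins and more weakly BMPs, read between 8.07 and 8.74 on the mock and between 9.85 and 10.17 on the Bcl11b arrays. It rose 3.04-fold (log2 change 1.6, SE 0.15, adjusted p = 0.0208 from limma), and without normalization its log2 change was 0.90 (adjusted p = 0.125 from limma).

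Nbl1, a BMP antagonist of the DAN family, averaged 10.98 ± 0.22 (SD, n = 4) on the mock and 10.53 ± 0.16 (SD, n = 4) on the Bcl11b arrays, a difference of -0.45 (SE 0.13, adjusted p = 0.289 from limma). With arrays scaled to equal medians the difference of Nbl1 was -0.38 and no longer passed the unadjusted threshold. Bmp1, a protease that cleaves chordin and procollagen, had 3 probes detected on all arrays that disagreed. ILMN_2989955 had a difference of -0.56 (SE 0.21, adjusted p = 0.416 from limma) with no overlap of the groups, while the 2 others had differences of 0.17 and 0.060. ILMN_2989955 no longer passed the unadjusted threshold without mock replicate 4 (-0.52), without any one of the Bcl11b arrays (-0.60 to -0.54) or with arrays scaled to equal medians (-0.50). Fstl1, a secreted follistatin-like protein, had a difference of 0.41 (SE 0.37, adjusted p = 0.802 from limma), which was 0.72 and passed the unadjusted threshold without mock replicate 2.

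Among coreceptors and receptors, Rgma, a membrane-anchored BMP coreceptor also known from axon guidance, read 8.63, 7.88, 8.60 and 8.76 on the mock arrays and 7.35, 7.75, 6.95 and 7.53 on the Bcl11b arrays. The groups did not overlap, and the difference was -1.07 (SE 0.25, 2.10-fold lower, adjusted p = 0.201 from limma). Acvr2b, a type II receptor for activins and some BMPs, read 7.85, 7.31, 8.23 and 8.08 on the mock arrays and 7.07, 7.12, 6.22 and 6.77 on the Bcl11b arrays, where 3 of 4 were detected. Its difference was -1.08 (SE 0.28, 2.11-fold lower, adjusted p = 0.235 from limma), again without overlap. Both stayed past the unadjusted threshold with each array left out in turn. Acvr1, a type I receptor, had a difference of -0.30 (SE 0.15, adjusted p = 0.604 from limma). Without Bcl11b replicate 4 its difference was -0.39 and passed the unadjusted threshold.

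Of 12 further BMP and Gdf ligands on the arrays, Bmp8b was detected, with a difference of -0.14 (SE 0.11, adjusted p = 0.802 from limma), and the remaining 11 were not. Of the other Smads and their regulators, 7 of 8 genes were detected and none passed either threshold. Smad4, the partner shared by all receptor-regulated Smads, averaged 12.28 ± 0.082 (SD, n = 4) on the mock and 12.25 ± 0.082 (SD, n = 4) on the Bcl11b arrays, with a 95% interval for the difference of -0.17 to 0.10 (adjusted p = 0.98 from limma). Among other target genes 3 of 6 were detected and none passed, and Hey1, a Notch and BMP target, differed by 0.037 (SE 0.15). Among the bHLH factors 4 of 12 were detected. Tcf4, an E protein that Id proteins bind, read between 13.21 and 13.46 on the mock arrays and between 12.94 and 13.15 on the Bcl11b arrays. The difference of -0.27 (SE 0.074, adjusted p = 0.272 from limma) was smaller than the threshold asks for, and it was 0.074 with arrays scaled to equal medians, as that of Smad4 was 0.17. One of the 2 Hes5 probes passed the adjusted threshold without being detected on any array, and no change is given for it.

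**Figure D4:**
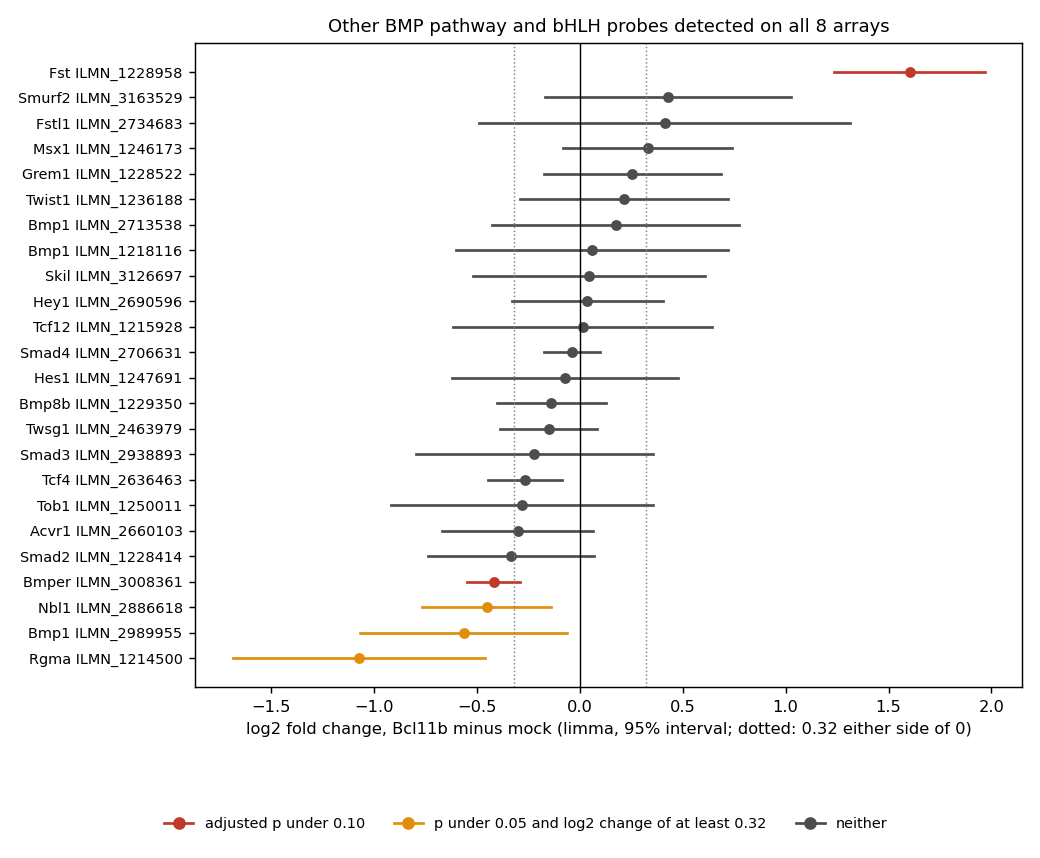
Log2 fold change, Bcl11b minus mock (horizontal axis), of the 24 other pathway and bHLH probes detected on all 8 arrays, with 95% intervals from limma and dotted lines at 0.32 either side of 0. Fst (1.6) and Bmper (-0.42) are coloured as past an adjusted p of 0.10, and Nbl1, Bmp1 ILMN_2989955 and Rgma as past the unadjusted threshold.

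For 1 probe of each detected member, the one with the highest mean signal, the probes most like it were sought by Pearson correlation over the 8 arrays after subtracting each group's mean, among at least 8130 probes detected on all arrays. These correlations describe how the arrays within a group differ, and all probes share the same arrays. Id1 was most like Rps21 and Dpm3 (r = 0.999 for both), and Id3 was most like Rps25 (0.992) and Grcc2f (0.977). Rps21 and Rps25 encode proteins of the small ribosomal subunit. Id1 and Id3 were both lowest on Bcl11b replicate 4, for Id1 with a gap of 0.953 of the range of its group. The part of that single array in these correlations was not tested. Id2 was most like 2410004B18Rik (0.991) and Slc25a3, the mitochondrial phosphate carrier (0.981). Id4 had lower values, 0.953 for 2410127L17Rik and 0.949 for Acsl6. Smad5 was most like Hnrpc and Coro1b (0.993 for both), Smad6 most like Zdhhc7 (0.991) and Brd2 (0.984), and Smad1 most like Alcam (0.986) and 1110056N09Rik (0.977). For Bmpr1a they were Elys (0.963) and Rev3l (0.959), and for Bmp4 6330409N04Rik (0.967) and Apbb1ip (0.966).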

How the data were processed

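Total RNA of 8 samples was profiled on Illumina arrays. The deposited intensities are background-subtracted bead averages from GenomeStudio (named in the submitters' processing notes), which the authors had not normalized between arrays. The authors also deposited a detection p-value per probe and array. All 16 value columns were matched to samples by the titles, and groups were taken from the titles. No 2 arrays held identical values.

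Signals were quantile-normalized as in the study's methods, raised to a floor of 1, put on the log2 scale and tested with limma (version 3.58.1, R 4.3.3; lmFit, eBayes, no covariate) over 25697 probes. On each array 30.6% to 31.6% of deposited signals were not above 0, so the floor sets the size of changes of dim probes. Thresholds were an adjusted p of 0.10, and an unadjusted p of 0.05 with a log2 change of at least 0.32 (the fold limit of the study's methods). The fit was run on simulated data with noise drawn independently for each probe and array. The simulation held no deviation shared by the probes of an array, so it does not cover arrays that stand apart. Probes of a gene were not averaged. Where a probe was detected in 1 group only, the change is a bound, with the lowest detected signal of every array in the other group as its level. Genes were named by their current or older symbol in RefSeq (GRCm38.p6), a symbol that could stand for 2 genes being left out. Named are all members, other pathway genes past a threshold, the probe of highest mean signal in each role, and the 2 probes most like each member (SD within groups of at least 0.15). The members and lists were chosen with earlier results of these data known. Alternatives were other scalings, offsets and filters, a replicate block, limma-trend with robust eBayes, arrayWeights and leaving out arrays, with 2 alternatives chosen after seeing the data. ChIP-seq and PCR data of the study were not analysed here.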

Additional observations from a re-analysis of the deposited data

Results flagged for a closer look

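In each group of 4 arrays the highest and lowest value of every detected member probe was compared with its neighbours. Of 30 groups, 4 held an array far from the rest. The limit is one that about 1 in 20 groups of independent values would pass. These groups share the same arrays, and the share over all detected probes was not computed. The count is therefore not read as an excess. On the log2 scale the 4 arrays were Bcl11b replicate 4 for Id1 (10.66, low) and for the dimmer Bmpr1a probe ILMN_2653312 (9.35, high), mock replicate 1 for Id2 probe ILMN_1228557 (11.07, high), and mock replicate 4 for Id3 (9.79, low). The gap to the nearest array was 0.953, 0.864, 0.961 and 0.936 of the range of the group.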

How the results depend on the processing

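Precision is limited by 4 arrays per group, and for dim probes by background. Of 531 values of single probes under the alternatives, 461 kept direction and side of the unadjusted threshold, 24 no longer passed it, 18 newly passed it and 28 turned direction. Of the same 531 values, the adjusted call was lost in 24 of the 56 that belong to Fst, Bmper and Chrd and gained in 8 of the rest. Shifting the lowest signal to 1, also chosen after seeing the data, gave Bmper an adjusted p of 0.329 from limma.

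The member count past an adjusted p of 0.10 was 0, but 2 with arrayWeights (Smad5 ILMN_3076864, Smad6 ILMN_2773835) and 0 to 1 with each array left out, 1 without Bcl11b replicate 4. The count past the unadjusted threshold was 3, but 10 without normalization between arrays and 0 to 4 with each array left out (0 without mock replicate 4, 1 without mock replicate 3 or Bcl11b replicate 1 or 2). The wider count was 7, but 21 without normalization, which shifted the median of all probes by -0.49. With mock replicate 1 and Bcl11b replicate 4 left out together, chosen after seeing the data, the member counts were 1 and 6. The causes were not tested.

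Directions turned as follows. Without normalization the log2 changes were -0.661 for Bmpr1a ILMN_2653312, -0.383 for Smad5 ILMN_3076864, -0.599 for Smad5 ILMN_3155789, -0.718 for Smad6 ILMN_3008748, -0.327 for Id3, -0.131 for Fstl1 and -0.64 for Hey1. With arrayWeights they were -0.186 for Bmpr1a ILMN_2653312, -0.0823 for Smad5 ILMN_3155789, -0.275 for Smad6 ILMN_3008748 and -0.0926 for Hey1. With arrays scaled to equal medians they were 0.171 for Smad4 and 0.0743 for Tcf4. With both arrays left out they were -0.334, -0.205 and -0.489 for the same Bmpr1a, Smad5 and Smad6 probes, 0.157 for Id1, 0.047 for Id2 ILMN_1228557 and -0.106 for Hey1. Leaving out single arrays gave values from -0.15 to 0.164 for Bmpr1a ILMN_2653312, from -0.0664 to 0.219 for Smad5 ILMN_3155789, from -0.306 to 0.305 for Smad6 ILMN_3008748, from -0.414 to 0.017 for Id1 and from -0.109 to 0.107 for Hey1.

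Arrays of the same replicate number did not all deviate together (r = 0.677, -0.630, 0.182 and 0.695 across probes), so the numbers were not taken as pairs. With the replicate block 2 member probes passed the unadjusted threshold, Smad5 ILMN_3076864 (0.338) and Smad6 ILMN_2773835 (-0.394), while Id4, and in the wider list Acvr2b and Bmp1 ILMN_2989955, did not, and 0 members passed the adjusted one. Over all probes the adjusted calls were 45 with the block and 252 without it, and none of Fst, Bmper and Chrd passed (adjusted p from limma 0.205, 0.166 and 0.262).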
